A study of Mus musculus with 6 samples.

Results

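The semaphorins, plexins and neuropilins form a guidance system of secreted and membrane-bound ligands and their receptors. The genes were chosen by name alone, as every semaphorin of classes 3 to 7, every plexin of the A to D families and both neuropilins that the array measures with a single gene symbol. This gave 31 genes of the 19938 genes named on the array, namely 20 ligands and 11 receptors. The ligands were 7 secreted class 3 semaphorins and 13 membrane-anchored semaphorins of classes 4 to 7, and the receptors were 9 plexins and 2 neuropilins. Total RNA came from the lumbar spinal cord of strain SV129 mouse embryos at stage E15.5, and each sample was hybridised to 1 whole-transcript array. The 2 groups were 3 wild-type samples and 3 samples of genotype TNC -/-, a knockout of the gene for the matrix glycoprotein tenascin-C. Strain, tissue and age were the same in both groups, no sample was treated, and the labels call the samples of a group biological replicates. The sources used here do not state which part of Tnc was removed, which litters the embryos came from or whether tissue of several embryos was pooled.

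Semaphorins share a large sema domain through which they bind plexins, single-pass receptors whose inner part acts on small GTPases and, through them, on the cytoskeleton of growth cones and migrating cells. Most secreted class 3 semaphorins bind plexins weakly and need a neuropilin as the ligand-binding partner of the receptor complex, whereas membrane-bound classes bind plexins directly. In the embryonic cord this system repels and bundles sensory, motor and commissural axons, keeps motor neuron cell bodies inside the cord, and guides oligodendrocyte precursors and blood vessels. The comparison addresses whether the ligands and receptors were expressed at other levels when tenascin-C was lost.

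Values are deposited log2 levels made with RMA, which corrects background, equalises the arrays and summarises the probes of a gene, and a difference is the knockout mean minus the wild-type mean on that scale. Tnc read 10.72, 10.22 and 10.02 in wild type and 9.64, 9.76 and 9.47 in knockout, a difference of -0.69 with a 95% interval from -1.09 to -0.30. Its signal was thus lower in every array labelled knockout but not absent there. The cord identity of the tissue was checked by list. Mean levels lay between 12.36 and 12.45 for 8 neuron markers and between 11.01 and 11.24 for 8 radial glial markers. They lay between 8.21 and 8.63 for 8 motor neuron markers and between 11.00 and 11.25 for the lumbar genes Hoxc10, Hoxd10 and Hoxd9. Knockout replicates 1 and 3 carried Y-linked signal (means of 8.20 and 7.86) and the other 4 arrays did not (4.32 to 4.48), so genotype and sex were partly confounded. Wild-type replicates 1 and 3 lay at opposite ends of the leading component of variation (scores of 18.5 and -22.8), which held 49.0% of the variance over all genes. The array number limits the precision of every value.

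None of the 31 genes passed the test between wild type and knockout, and the values farthest apart were those of the neuropilins, Nrp2 at 119% and Nrp1 at 90.8% of wild type. Limma gave 0 of 31 genes past an adjusted p of 0.05, where the share over all 19938 genes was 0.00%. The knocked-out gene Tnc did not pass either, so a gene that did not pass can still differ. On the brightest row of each gene, no gene of the system reached an unadjusted p under 0.05, where 1.70% of all genes did. The smallest was 0.0639 for Nrp2. Some alternatives took genes under that unadjusted bound. In 6 of them it was 1 to 2 of the 31, where 1.04% to 6.91% of all genes were under it. With array weights it was 7, where 21.0% of all genes were under it. In 0 of 31 genes did all 3 knockout values lie to 1 side of all 3 wild-type values, where 5.82% of all genes were separated in that way. With 3 arrays in each group an exact permutation test cannot go below p = 0.1, and 0 of the 31 genes reached it. That value needs groups that do not overlap, so this count restates the one before it.

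The differences were small. They ran from -0.14 for Nrp1 to 0.25 for Nrp2, and 27 of 31 were under 0.1 log2 units in size. The knockout mean was the higher in 19 genes and the lower in 12, with a median difference of 0.01, against a median of -0.01 over all genes, of which 46.4% were higher. The 95% confidence interval lay within a 1.25-fold change in either direction for 27 of the 31 genes, the exceptions being Nrp1, Nrp2, Sema3a and Sema5b, and within 1.5-fold for all 31. With a sex term the intervals were wider, and 10 of 31 lay within 1.25-fold and 28 within 1.5-fold, Nrp1, Nrp2 and Sema5b reaching beyond. These intervals apply to the RMA scale, are not adjusted for the number of genes and rest on 6 arrays. The median half-width of an interval was 0.19. In 27 of 31 genes (87.1%) the range over the 3 wild-type arrays alone was larger than the difference between the group means, as it was in 92.8% of all genes. The sign of the difference held with each single array left out in 14 genes, 8 higher and 6 lower, and turned with some array in the other 17.

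**Figure D1:**
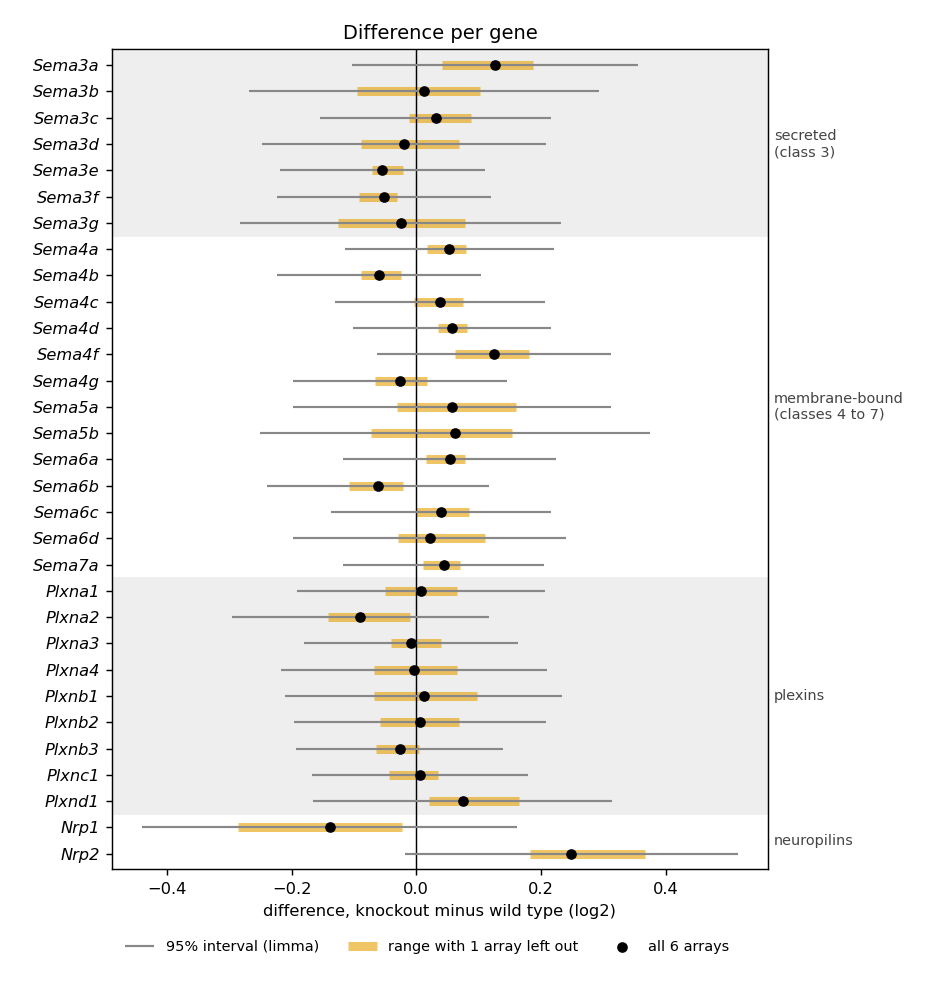
Difference of knockout minus wild type (log2, horizontal axis) for each of the 31 genes, grouped into secreted ligands, membrane-bound ligands, plexins and neuropilins. Points are values over 6 arrays, grey lines the 95% limma intervals and orange bars the range with 1 array left out. Every grey line crosses 0, and Nrp2 at 0.25 and Nrp1 at -0.14 lie farthest from it.

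By class, the median differences of ligands and receptors all lay close to 0. Of the 7 secreted ligands 3 had the higher mean in knockout, and their median difference was -0.02. Of the 13 membrane-bound ligands 10 did, and their median was 0.04. Of the 9 plexins 5 did, all 9 lay under 0.1 in size, and their median was 0.01. The membrane-bound median stayed between 0.035 and 0.044 with single arrays left out, while the secreted median ran from -0.03 to 0.02 and the plexin median from -0.05 to 0.04. With a sex term, under which the comparison rests on knockout replicate 2 as the only knockout array without Y-linked signal, the medians were 0.05 for secreted and 0.02 for membrane-bound ligands. No test was made of a difference between classes. In a set of 38 ephrin, Eph, Slit, Robo and netrin guidance genes, gathered by symbol, 24 had the higher mean in knockout, and the median difference was 0.04.

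Neuropilins, the ligand-binding co-receptors, held both ends of the range of differences. Nrp2, which binds Sema3f and Sema3c, read 10.44, 10.40 and 10.61 in wild type and 10.50, 10.86 and 10.84 in knockout. Knockout replicates 2 and 3 stood above every wild-type array, but knockout replicate 1 stood below wild-type replicate 3, so the groups overlapped. The means were 10.48 ± 0.11 and 10.73 ± 0.20 (SD, n = 3 each), a difference of 0.25 with a standard error of 0.12 and an interval from -0.02 to 0.52, or 119% of wild type. The limma unadjusted p was 0.0639, the adjusted p was 1 and the exact permutation p was 0.2. The limma unadjusted p of Nrp2 was 0.0279 with the replicate block, 0.0234 with median centring, 0.0345 with an intensity trend, 0.0436 with a sex term and 0.00143 with array weights. Leaving out wild-type replicate 3 gave a limma unadjusted p of 0.0275, and leaving out knockout replicate 1 gave 0.00764. In these 2 fits 6.91% and 1.22% of all genes were under 0.05. The remaining settings left Nrp2 above that bound. Omitting any other single array put its limma unadjusted p between 0.134 (wild-type replicate 1) and 0.206 (knockout replicate 2). It was 0.0727 after renewed quantile normalization, 0.0623 with the filter on genes under the 25th percentile and 0.0634 with the mean of all rows. The limma adjusted p ranged from 0.0977, with array weights, to 1 over all alternatives. The array weights were 0.41, 6.39 and 0.27 in wild type and 0.85, 2.14 and 0.77 in knockout. They thus leaned on wild-type replicate 2, the lowest Nrp2 value, and on knockout replicate 2, the highest. In size the Nrp2 difference exceeded that of 98.4% of all genes. Nrp2 is named here as the largest difference of the 31 genes, so its high rank is not separate support. The Nrp2 difference was 0.37 without knockout replicate 1 and 0.18 without knockout replicate 2. With each array centred on its own median the groups of Nrp2 no longer overlapped, as in 7.17% of all genes. With a sex term the Nrp2 difference was 0.39 with an interval from 0.01 to 0.77. That value rests on knockout replicate 2, which held the highest Nrp2 value.

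Nrp1, the co-receptor for Sema3a and also a receptor of vascular endothelial growth factor, read 11.16, 10.99 and 10.64 in wild type and 10.87, 10.76 and 10.74 in knockout. The highest and the lowest of its 6 values were both wild-type arrays, and the knockout values lay between them. The means differed by -0.14 (standard error 0.13), with an interval from -0.44 to 0.16, and the exact permutation p was 0.5. The wild-type arrays spread by 0.27 (SD, n = 3) and the knockout arrays by 0.07 (SD, n = 3). Without wild-type replicate 1 the difference was only -0.02. Without wild-type replicate 3 it was -0.29 with a limma unadjusted p of 0.0111 and an adjusted p of 0.697. In that fit 6.91% of all genes had an unadjusted p under 0.05. The changes of Nrp2 and Nrp1 differed from each other by 0.39, but knockout replicate 1 lay inside the wild-type values on that measure too, at -0.37 for Nrp2 minus Nrp1 against -0.73, -0.59 and -0.02.

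Both neuropilins are made by vessels as well as neurons. The markers of endothelium stood higher in knockout, as Nrp2 did and Nrp1 did not. All 9 endothelial markers had the higher mean in knockout, none passed the adjusted test, their median difference was 0.17, and 4 of 9 had groups that did not overlap, where 5.82% of all genes did so. The mean level over the list was 8.68, 8.60 and 8.75 in wild type and 8.85, 8.96 and 8.74 in knockout. Among knockout arrays the list was lowest in replicate 3, whereas Nrp2 was lowest in replicate 1. Kdr, 1 of the 9 and the vascular growth factor receptor that pairs with Nrp1, differed by 0.14. The part of endothelium in the neuropilin values was not tested. In whole cord, a changed number of cells of a type and a changed amount of RNA per cell cannot be told apart.

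**Figure D2:**
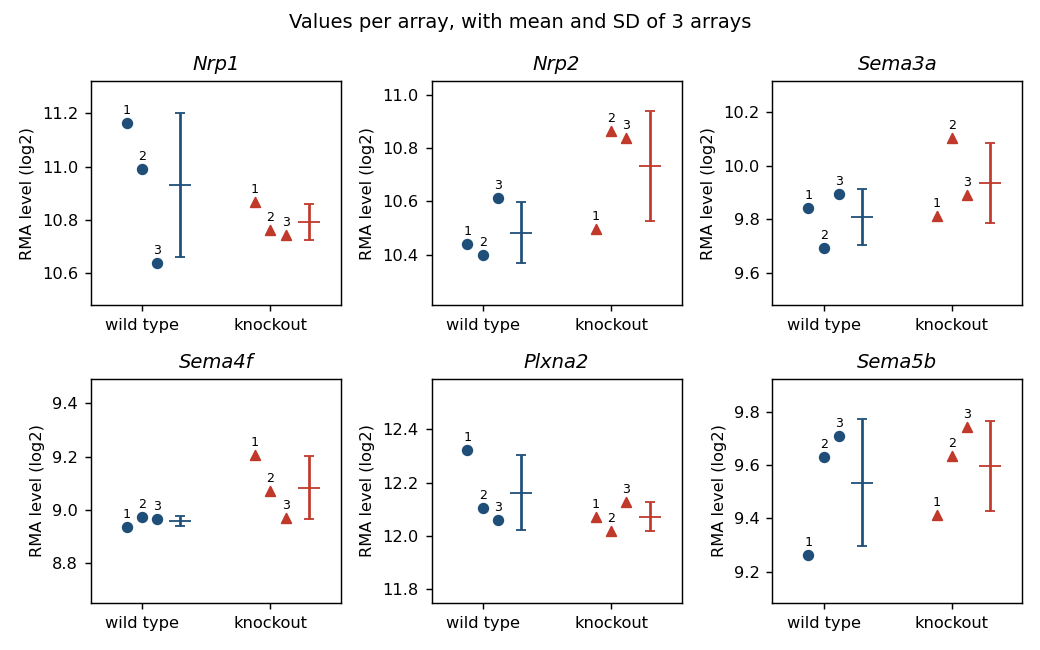
RMA level (log2, vertical axis) of 6 genes in each array, with the replicate number above each point and the mean and SD of 3 arrays beside it; each panel spans the same number of log2 units. Groups overlap in every panel, and wild-type replicates 1 and 3 of Nrp1 (11.16 and 10.64) enclose its 3 knockout values.

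Among the secreted ligands, Sema3a, a strong repellent for sensory and motor axons acting through Nrp1, had the largest difference. It read 9.84, 9.69 and 9.89 in wild type and 9.81, 10.10 and 9.89 in knockout. Only knockout replicate 2 stood above all wild-type arrays, and the other knockout values fell among them. The difference was 0.13, with an interval from -0.10 to 0.36, and it was 0.04 without knockout replicate 2. With a sex term, which rests on that same knockout array, it was 0.29 with an interval from 0.01 to 0.58, a limma unadjusted p of 0.0467 and an adjusted p of 1.

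Sema3e, which signals through Plxnd1 without a neuropilin and acts on vessels and on sensory-motor connections, read 7.48, 7.39 and 7.39 in wild type and 7.40, 7.38 and 7.31 in knockout. These 6 values lay within a narrow band, and the groups overlapped through knockout replicate 1. The difference was -0.05, with an interval from -0.22 to 0.11. Sema3f, the Nrp2 ligand, differed by -0.05 and kept its sign with each array left out (-0.09 to -0.03). Sema3c, a second Nrp1 and Nrp2 ligand, differed by 0.03. Sema3b, Sema3d and Sema3g differed by 0.01, -0.02 and -0.02, and each changed sign with some array left out. Among the 31 genes Sema3d and Plxnb3 read closest to the background guide, with wild-type means of 6.50 and 6.39. That guide was 6.13, the level below which 95% of 1194 odorant and pheromone receptor genes read, and all 31 genes had a mean above it.

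**Figure D3:**
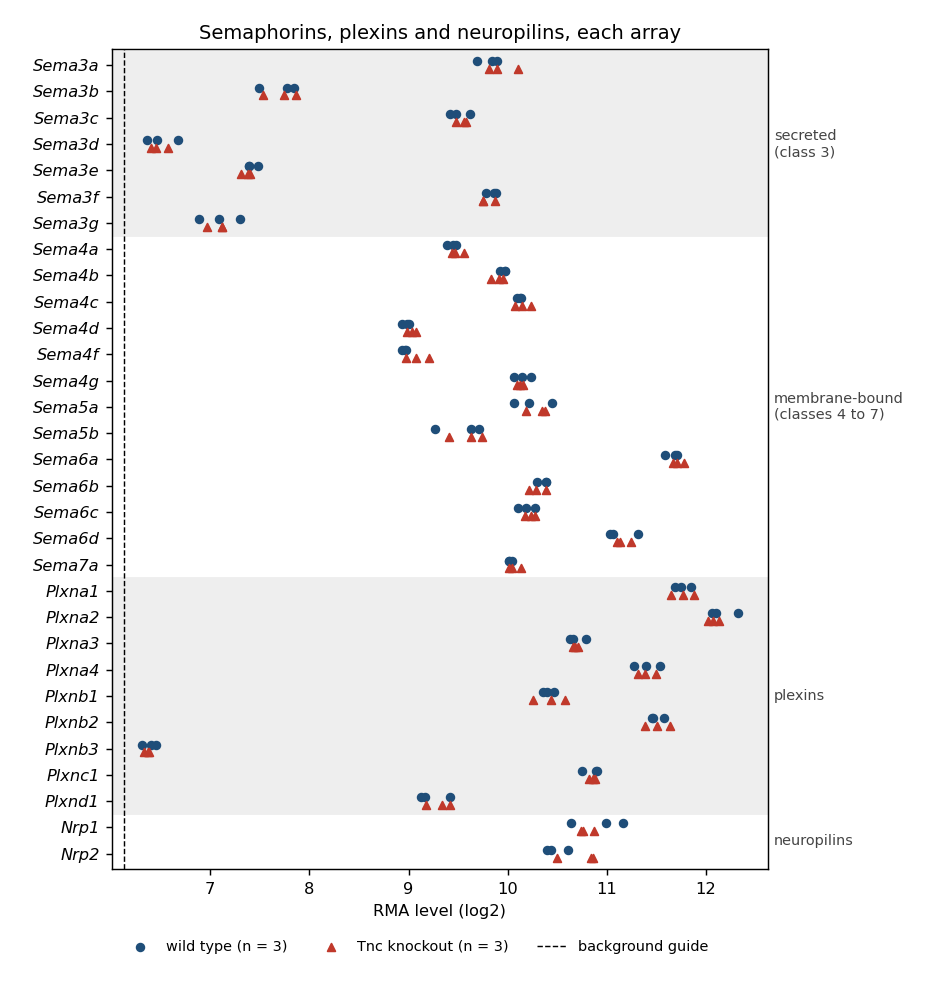
RMA level (log2, horizontal axis) of each of the 31 genes in each array, with wild type as circles and Tnc knockout as triangles (n = 3 each); the dashed line is the background guide at 6.13. The 2 groups overlap in every gene, and Sema3d and Plxnb3 lie nearest the line.

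Class 4 semaphorins, which bind mainly B-type plexins, spread little between arrays, with a median within-group SD of 0.06 against 0.13 for the secreted class and 0.12 over all genes. Sema4f, a semaphorin linked to glutamatergic synapses, read 8.94, 8.97 and 8.97 in wild type and 9.21, 9.07 and 8.97 in knockout. Knockout replicates 1 and 2 stood above the wild-type arrays, and knockout replicate 3 stood among them. The difference was 0.12, with an interval from -0.06 to 0.31 and a limma unadjusted p of 0.163. It was 0.06 without knockout replicate 1 and 0.18 without knockout replicate 3.

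Sema4d, the ligand of Plxnb1 that oligodendrocytes make, read 8.98, 8.94 and 9.01 in wild type and 9.08, 9.04 and 8.99 in knockout. Knockout replicates 1 and 2 again stood above the wild-type arrays while knockout replicate 3 stood inside them, and the difference was 0.06 with an interval from -0.10 to 0.22. Sema4d had a second, dimmer row on the array, which read 7.92, 7.89 and 7.96 in wild type and 8.02, 8.12 and 8.15 in knockout. On that row the groups did not overlap, where 5.82% of all genes were so separated on their brightest rows. The difference on the dimmer row was 0.17. Fitted with all rows of the table it had an interval from -0.01 to 0.35, a limma unadjusted p of 0.0611 and an adjusted p of 1. That unadjusted p is below the 0.0639 of Nrp2, which came from the limma fit of the brightest rows.

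Sema4a, which is also known from immune cells and the retina, read 9.38, 9.48 and 9.45 in wild type and 9.47, 9.44 and 9.56 in knockout. Its difference was 0.05, with an interval from -0.11 to 0.22, and only knockout replicate 3 stood above the wild-type arrays. Sema4b read 9.92, 9.97 and 9.97 in wild type and 9.83, 9.96 and 9.91 in knockout. Knockout replicates 1 and 3 stood below the wild-type arrays, knockout replicate 2 stood among them, and the difference was -0.06 with an interval from -0.22 to 0.10. Sema4c, the Plxnb2 ligand, and Sema4g differed by 0.04 and -0.03, each changing sign with some array left out. Among the oligodendrocyte lineage markers, which share a source with Sema4d, 7 of 7 measured had the higher mean in knockout and none passed the adjusted test, with a median difference of 0.17 and list means of 8.64 to 8.72 in wild type and 8.82 to 8.91 in knockout. Their part in the Sema4d values was not tested.

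The class 5 semaphorins, which carry thrombospondin repeats and bind sulfated proteoglycans, had the widest spread of any ligand class, with a median within-group SD of 0.18. Sema5b read 9.26, 9.63 and 9.71 in wild type and 9.41, 9.63 and 9.74 in knockout. The first replicate of each group was its lowest array and the remaining values lay close together. The difference was 0.06, with an interval from -0.25 to 0.38, and it was -0.07 without wild-type replicate 1. Sema5a differed by 0.06, with its highest and lowest values, 10.45 and 10.07, both in wild type.

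In class 6, transmembrane ligands that bind A-type plexins, Sema6b read 10.39, 10.39 and 10.30 in wild type and 10.39, 10.21 and 10.29 in knockout. The groups overlapped, and the difference was -0.06 with an interval from -0.24 to 0.12. Sema6a, a ligand of Plxna2 and Plxna4 that helps hold motor neuron cell bodies in the cord, differed by 0.05 with an interval from -0.12 to 0.22. Sema6c and Sema6d differed by 0.04 and 0.02, and both changed sign with some array left out. Sema7a, the lipid-anchored member that binds Plxnc1 and beta1 integrin, read 10.04, 10.01 and 10.02 in wild type and 10.13, 10.05 and 10.01 in knockout. Knockout replicates 1 and 2 stood above the wild-type arrays by little, and the interval around the difference of 0.04 reached from -0.12 to 0.21.

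The plexins, the signalling receptors, differed less than the neuropilins in size in all 9 cases. Plxna2, the Sema6a receptor, had the largest difference in size. It read 12.32, 12.11 and 12.06 in wild type and 12.07, 12.02 and 12.13 in knockout, so that wild-type replicate 1 alone stood apart. The difference was -0.09 with an interval from -0.30 to 0.12, and without wild-type replicate 1 it was -0.01. The other A-type plexins, which serve the neuropilin complexes and class 6 ligands, differed by 0.01 (Plxna1), -0.01 (Plxna3) and -0.003 (Plxna4). Their intervals ran no lower than -0.22 and no higher than 0.21.

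The B-type plexins Plxnb1, Plxnb2 and Plxnb3, receptors of class 4 ligands, differed by 0.01, 0.01 and -0.03. Plxnc1, the Sema7a receptor, differed by 0.01 with an interval from -0.17 to 0.18. Plxnd1, the Sema3e receptor of vessels and neurons, read 9.13, 9.16 and 9.42 in wild type and 9.18, 9.42 and 9.33 in knockout. The values of both groups covered nearly the same range, and the difference was 0.07 with an interval from -0.17 to 0.31. Leaving out either wild-type replicate 1 or knockout replicate 2 gave 0.02 for Plxnd1, and leaving out wild-type replicate 2 gave 0.04. The difference was 0.14 when knockout replicate 1 was left out and 0.17 when wild-type replicate 3 was. In the latter case the groups did not overlap, as in 23.5% of all genes. With a sex term the difference was 0.18, and with array weights also 0.18. Both settings lean on knockout replicate 2, the highest knockout value of Plxnd1, so they are not separate support. Plxna3 and Plxnb3 lie on the X chromosome, and an effect of the embryos' sex on them was not tested. With a sex term they differed by 0.02 and -0.01. None of the 31 genes lies on chromosome 4, where Tnc is.

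For known ligand and receptor pairs the values are given side by side. Sema3a and Nrp1 differed by 0.13 and -0.14, and Sema3f and Nrp2 by -0.05 and 0.25. Sema3e and Plxnd1 differed by -0.05 and 0.07, Sema4d and Plxnb1 by 0.06 and 0.01, and Sema7a and Plxnc1 by 0.04 and 0.01. None of these 10 values passed the test, so their signs describe the 6 arrays.

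The highest and lowest values of these genes were spread over arrays of both genotypes. Wild-type replicate 1 held the highest value of 11 genes and the lowest of 6, and wild-type replicate 2 held the lowest of 10. In 11 genes both the highest and the lowest value came from wild type, and in 4 both came from knockout. Along the leading component, 7 of 31 genes (22.6%) had a correlation over 0.7 in size across the 6 arrays, against 41.6% of all genes, a description only, since the component was computed from the same values. They were Nrp1 (0.91), Plxna3 (0.72) and Plxnc1 (0.71) on the side of wild-type replicate 1, and Sema3b (-0.85), Sema5b (-0.84), Plxnd1 (-0.82) and Plxna1 (-0.73) on the side of wild-type replicate 3. Sema3b read 7.49, 7.77 and 7.85 in wild type and 7.54, 7.74 and 7.86 in knockout, a pattern like that of Sema5b with the first replicate low in both groups. Markers of motor neurons varied along the same component. The mean level of 8 such markers was 8.21, 8.45 and 8.63 in wild-type replicates 1, 2 and 3 and between 8.53 and 8.56 in knockout, and 5 of the 8 had a correlation over 0.7 in size, from -0.93 for Chat to -0.13 for Prph over the whole list. So did 4 of 4 cartilage markers (-0.94 to -0.71) and 3 of 6 muscle markers, lists of which 2 and 3 genes read under the background guide. Other lists held such genes too, against 41.6% of all genes. They were 3 of 8 neuron markers (-0.46 to 0.98 over the list), 2 of 3 lumbar genes and 2 of 4 sensory ganglion markers (-0.93 to 0.91). Of the radial glial markers it was 2 of 8 (-0.84 to 0.81), of the oligodendrocyte lineage 1 of 7 and of endothelium 0 of 9. The median difference of the motor neuron list was 0.10, and -0.02 without wild-type replicate 1. The part of motor neurons, cartilage or muscle in the values of these genes was not tested.

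**Figure D4:**
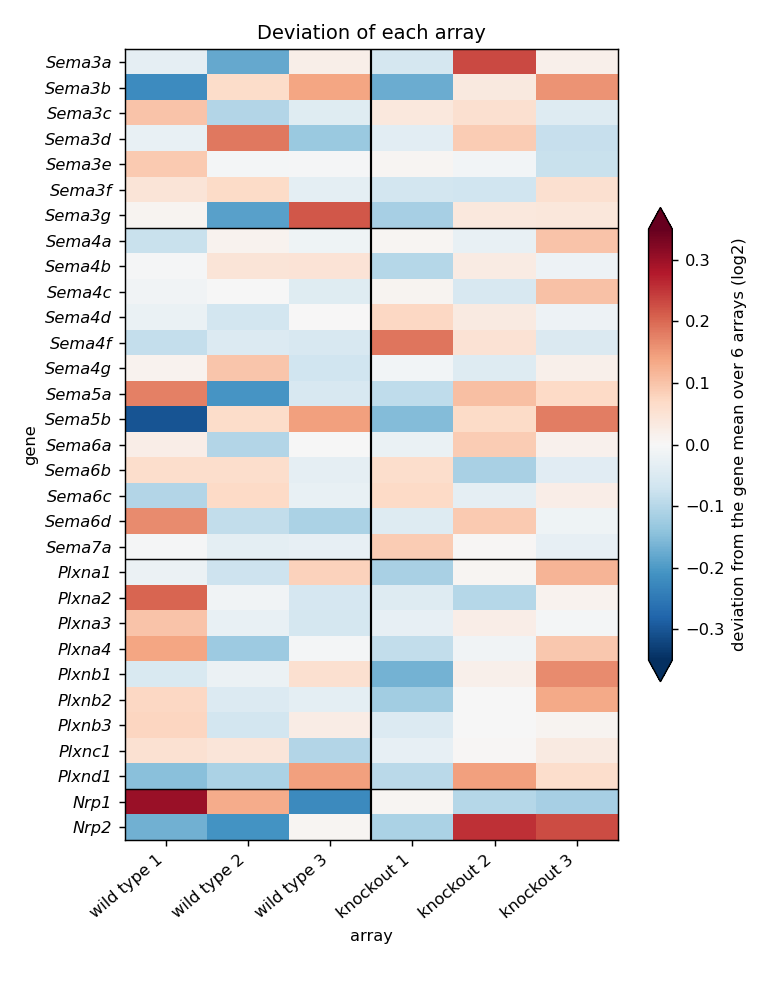
Deviation of each array from the gene's mean over 6 arrays (log2, colour) for the 31 genes in rows and the 6 arrays in columns. No column block separates wild type from knockout, and the strongest colours lie within wild type, as for Nrp1 and Sema5b in wild-type replicate 1.

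The partners of the system were read from a list of 42 genes, of which 41 were measured. It held processing enzymes, surface partners and the intracellular machinery, such as collapsin response mediators and regulators of the cytoskeleton. By limma with Benjamini-Hochberg adjustment 0 of 41 passed in either direction and 0 reached an unadjusted p under 0.05. The knockout mean was the higher in 20 of them and the lower in 21, and the median difference was -0.002. The groups did not overlap in 3 higher genes (Rac1, Rnd1 and Dpysl5) and 1 lower gene (Cd72), or 4 of 41, where 5.82% of all genes were so separated. Those with the smallest p among the higher were Itga1 (0.20), the alpha subunit of a Sema7a-binding integrin, Rac1 (0.12), a GTPase bound by plexins, and Kdr (0.14). Rac1 read 12.09, 11.97 and 12.12 in wild type and 12.20, 12.15 and 12.20 in knockout, and its interval ran from -0.05 to 0.29. Among the lower were the adhesion molecule Chl1 (-0.10), a Sema3a co-receptor component, Cd72 (-0.07), the Sema4d receptor of lymphocytes, and Trio (-0.07), a guanine nucleotide exchange factor. Cd72 read under the background guide in both groups. L1cam, which partners Nrp1, and Furin, which cleaves class 3 semaphorins, differed by 0.02 and 0.03.

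Other cell types that a dissected cord can carry were read from lists as well. Of 7 meningeal markers 5 had the lower mean in knockout, with a median difference of -0.17, and the list means ran from 7.68 to 7.94 in wild type and from 7.59 to 7.83 in knockout. Of 4 sensory ganglion markers 3 read under the background guide. Radial glial markers had a median difference of 0.03. Sema3 genes are also made by meninges and muscle, and the part of such tissue in their values was not tested.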

How the data were processed

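Arrays of 6 samples were compared, 3 wild-type and 3 knockout, grouped by their titles. The authors deposited log2 values, computed by RMA according to the labels (per the submitters' processing notes); its version is not given in the sources used here, nor are annotation and build. RMA compresses small differences and removes global shifts. Of 35557 rows, 21789 had a single symbol in the platform annotation, giving 19938 genes after symbols were updated through a RefSeq table of assembly GRCm38.p6. The brightest row stood for a gene. Of the 31 genes, 2 had a second row. Only gene names and chromosomes were taken from that table.

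Knockout and wild type were compared with limma 3.58.1 in R 4.3.3 (lmFit and eBayes, group as the only term, all 6 arrays), with Benjamini-Hochberg adjustment over all 19938 genes and a threshold of 0.05. P values were two-sided and measure the spread between these samples. The fit was tested on simulated data with independent noise for each gene. Those data lacked the leading component and the sex difference of these arrays, so they do not show how the fit behaves under them. Genes given with all 6 values were the 5 of smallest p in each direction, both neuropilins and those of widest spread, with the 3 partners of smallest p in each direction named by their differences, and others were added after their values were seen. The genes and lists were chosen with earlier results of these data known. Alternatives were each array left out, the replicate number as a block, renewed quantile normalization, median centring, a filter on genes under the 25th percentile, the mean of all rows, a sex term, an intensity trend and array weights. A fit of all rows and the dimmer Sema4d row were added after seeing the data.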

Additional observations from a re-analysis of the deposited data

How the results depend on the processing

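No gene of the system passed an adjusted p of 0.05 under any alternative run. The smallest limma adjusted p was 0.0977, for Nrp2 with array weights, where 21.0% of all genes had an unadjusted p under 0.05 and the estimation of the weights gave a convergence warning. Over all genes the count past the threshold was 0, and 0 to 4 with single arrays left out, 4 being without knockout replicate 2. A fit of all rows of the table, added after seeing the data, called 9 rows, none of them a row of these 31 genes. Genes of the system with groups that did not overlap numbered 1 under median centring (Nrp2; 7.17% of all genes), 1 with the mean of all rows (Sema4d; 5.75%) and 2 to 5 with single arrays left out (11.0% to 23.5% of all genes), 5 being without wild-type replicate 3. Signs of small differences were not stable. With single arrays left out they ran from -0.049 to 0.066 for Plxna1, -0.041 to 0.040 for Plxna3, -0.068 to 0.065 for Plxna4, -0.068 to 0.097 for Plxnb1, -0.058 to 0.069 for Plxnb2, -0.065 to 0.0048 for Plxnb3 and -0.044 to 0.034 for Plxnc1. They ran from -0.095 to 0.10 for Sema3b, -0.012 to 0.089 for Sema3c, -0.089 to 0.069 for Sema3d, -0.13 to 0.078 for Sema3g, -0.0036 to 0.076 for Sema4c and -0.067 to 0.017 for Sema4g. They ran from -0.032 to 0.16 for Sema5a, -0.073 to 0.15 for Sema5b, -0.0011 to 0.085 for Sema6c and -0.029 to 0.11 for Sema6d. Signs also turned with renewed quantile normalization for Plxna1 (-0.0022), Plxna4 (1.8e-05), Plxnb3 (0.0057) and Sema3d (0.013). Under median centring they turned for Plxna3 (0.022), Plxna4 (0.027), Plxnb3 (0.0037), Sema3d (0.011), Sema3g (0.0055) and Sema4g (0.0050). A sex term turned Plxna3 (0.022), Sema3d (0.068), Sema3g (0.035), Sema4c (-0.029) and Sema6c (-0.016). Array weights turned Plxna3 (0.026), Plxna4 (0.099), Plxnb3 (0.041), Plxnc1 (-0.033), Sema3b (-0.037), Sema3g (0.17), Sema4c (-0.0032), Sema5b (-0.0060) and Sema6c (-0.054). The cause of these turns was not tested. Median centring put the median difference at 0.042 for the 31 genes, 0.075 for membrane-bound ligands and 0.029 for partners, and a sex term gave 0.049 for secreted ligands, 0.023 for membrane-bound ligands and 0.029 for partners. With single arrays left out the secreted median ran from -0.030 to 0.021 and the partner median from -0.016 to 0.015. Same-numbered replicates deviated with correlations of 0.35, -0.07 and 0.45 over genes, and unlike-numbered ones with -0.47 to 0.28. The same-numbered correlations were positive for replicates 1 and 3 but not for replicates 2. The 0.28 came from wild-type replicate 2 with knockout replicate 1. Deviations sum to 0 within a group, so these correlations depend on each other and cannot settle whether replicates were paired. The labels state no pairing, so the main fit did not take the numbers as pairs. The replicate block left each difference as it was, called 0 genes, took Nrp2 to an unadjusted p of 0.0279 (3.19% of all genes were under 0.05) and gave a median of 0.012 for the 31 genes.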

Other observations

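Sema6b is named by 2 rows of the table, and these held the same value in every array (10.39 in wild-type replicate 1 on both), so they are not separate measurements. The 2 rows of Sema4d differed by 0.06 and 0.17 between the groups.

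Of the 31 genes, 5 stood apart between groups without wild-type replicate 3 (Nrp2, Plxnd1 and Sema4d higher, Nrp1 and Plxnc1 lower). Without knockout replicate 3 it was 4 (Sema4d, Sema4f and Sema7a higher, Sema3f lower). Without knockout replicate 1 it was 3 (Nrp2 higher, Sema3e and Sema6b lower). Over all genes the shares were 23.5%, 13.2% and 12.9% in these comparisons of 3 arrays with 2.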
